A study of Mus musculus with 24 samples.

Results

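The 9 livers that had received the NRas plasmid, of 24 in the series, were ranked by the level of human NRAS, the transferred oncogene, and every mouse gene with enough counts was related to that level. Of these livers 4 were from the group SB/AKT/NRas + saline and 5 from the group SB/AKT/NRas + TAA, and each library was the liver of 1 mouse. All 9 were male C57BL/6JAusb mice aged 14 to 15 weeks at hydrodynamic tail vein injection (HTVI), which flushes plasmids into the liver. Each had received 0.8 µg of SB plasmid, which encodes the Sleeping Beauty transposase that inserts the other plasmids into the genome, with 10 µg of myr-AKT and 10 µg of NRasV12 plasmid. From days 8 to 10 the mice had 10 to 11 intraperitoneal injections over 5 to 6 weeks, of saline or of thioacetamide (TAA), a toxin activated in hepatocytes around the central vein, at 100 and then 200 mg/kg. The 4 SB + saline livers, given the transposase plasmid without an oncogene, served as the reference level. For some genes and lists, values of the SB + TAA livers, which had TAA with the transposase plasmid alone, are added. Expression of the NRas plasmid is driven by CAGGS, a promoter active in many cell types, and the tissue was bulk liver, so that the number of cells with the plasmid and the level in each of them cannot be told apart. In bulk tissue, fewer cells of a type and less RNA per cell cannot be told apart either. How much tumor each piece of tissue held was not given in the sources used here. The 9317 mouse genes related to human NRAS, of 53467 in the table, were chosen by a mean of at least 5 CPM (counts scaled to the size of the library) over the 9 livers. Tcf7l1 at 5.001 CPM lay just inside that limit and Avpr1a at 4.999 CPM just outside. Since the mean covers all 9 livers, a gene low in most of them can pass through a high level in 1 liver. The same genes were kept where livers were left out, and shares of gene lists are among tested members only.

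NRAS is a small GTPase that carries signals from growth factor receptors to the MAPK cascade and to PI3K and AKT, and the V12 form is held in its active state. AKT is a kinase of the insulin pathway, and the myristoylated form sits at the membrane and signals without insulin. In the liver, active RAS with AKT gives rise to tumors of fatty hepatocytes, with cells that carry bile duct genes, and active RAS can also bring hepatocytes into senescence, a permanent halt of division with secretion of cytokines.

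The level of human NRAS differed widely among livers with the same plasmids. With saline, replicates 1, 2, 4 and 3 had 12.3, 55.3, 66.0 and 218 CPM. With TAA, replicates 4, 3, 1, 2 and 5 had 17.9, 18.5, 34.0, 47.6 and 75.7 CPM. The groups overlapped, since the lowest and the highest liver were both saline livers and all 5 TAA livers lay between them. These levels rest on 28 to 768 counts of molecules, and the 95% Poisson interval of the lowest liver, 8.18 to 17.8 CPM, overlapped those of TAA 4 (13.3 to 23.4 CPM) and TAA 3 (14.1 to 23.9 CPM), so that the order of these 3 livers is not set beyond counting error. The intervals of TAA 1 (27.7 to 41.3 CPM), TAA 2 (40.3 to 55.9 CPM), saline 2 (47.0 to 64.6 CPM), saline 4 (57.3 to 75.8 CPM) and TAA 5 (67.4 to 84.7 CPM) also overlapped from neighbor to neighbor. That of saline 3 (203 to 234 CPM) overlapped none. The mean was 87.9 ± 89.8 CPM with saline (SD, n = 4) and 38.7 ± 24.05 CPM with TAA (SD, n = 5), and without saline 3 the saline mean was 44.5 ± 28.4 CPM (n = 3). The range was 17.7-fold, or 4.15 log2 units, with saline and 2.08 log2 units with TAA. The other 15 livers had 0 to 2 counts of human NRAS, and the 9 livers had 0 counts of human MET, the oncogene of the c-Met plasmid given to other groups. Since human NRAS is the measure that ranked the livers, its level was not tested. In the text, livers are listed from low to high human NRAS, that is saline 1, TAA 4, TAA 3, TAA 1, TAA 2, saline 2, saline 4, TAA 5 and saline 3.

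**Figure D1:**
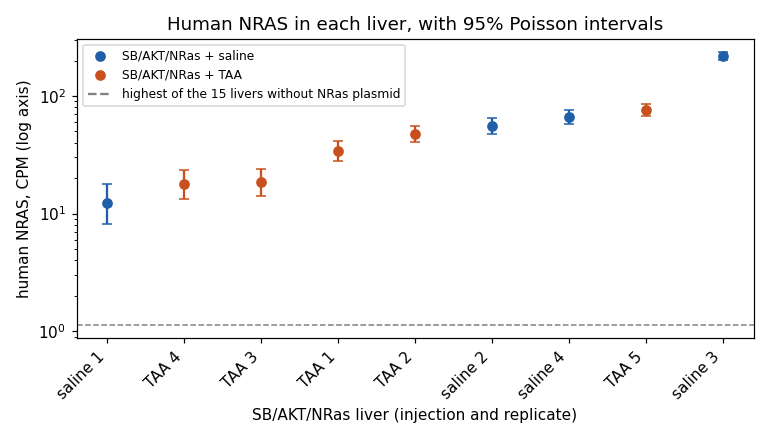
Level of human NRAS in CPM (log axis) in the 9 SB/AKT/NRas livers, ordered from low to high, with 95% Poisson intervals that cover counting error only. The saline livers (blue) hold both the lowest level, 12.3 CPM, and the highest, 218 CPM, and every liver lies above the dashed line, the highest of the 15 livers without NRas plasmid.

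The liver label was borne out by Alb (a mean of 26963 CPM over the 9 livers), Ttr (18967 CPM) and Apoa1 (9988 CPM), which encode plasma proteins of hepatocytes. The libraries held 2480622 to 3399247 counts, and within injury the relation of the total to human NRAS did not pass the test (Pearson r = 0.224, Spearman rho = 0.205, adjusted p = 0.588 and 0.628). Other properties of the libraries did move with human NRAS. The number of genes detected, 16403 to 18707, rose with it (r = 0.948, rho = 0.981, adjusted p = 0.00139 for both), and so did the TMM scaling factor, 0.846 to 1.19 (r = 0.911, rho = 0.982, adjusted p = 0.00347 for both). The percent of records that were assigned to genes, 13.8% to 23.9%, gave r = 0.910 (adjusted p = 0.0283) and rho = 0.780 (adjusted p = 0.0704). These p-values are from exact permutation tests, two-sided, over 2880 arrangements of the livers within injury, adjusted over 8 relations. Without saline 1 and saline 3, r was 0.655 for the assigned share, 0.894 for genes detected and 0.939 for the scaling factor. The part of these properties in the slopes below was not tested. Human NRAS and each mouse gene also come from the same library and share its scaling factor.

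To ask which mouse genes went along with the oncogene, the slope of each gene was fitted with edgeR, with injury as a covariate. A slope is the change in log2 CPM of the gene per log2 unit of human NRAS. A gene is called, or said to rise or fall with human NRAS, where its adjusted p over the 9317 genes is under 0.05. In the 9 livers 810 genes (8.69%) rose and 968 (10.4%) fell, while 2958 had an unadjusted p under 0.05 and the median slope was −0.01. Most of these slopes were shallow: 1293 of the 1778 called genes had an absolute slope under 0.5, and 71 had one of at least 1, of which 47 rose and 24 fell. Without saline 3, the highest liver, 593 genes (6.36%) rose and 829 (8.90%) fell. Of the 1778 genes, 1156 were called again with the same sign and 0 had a slope of the opposite sign. The lowest liver carried more of the calls, since without saline 1 only 386 rose and 511 fell. Scaled by library size alone, 2355 rose and 368 fell, and the median slope was 0.11 in place of −0.01. Slopes are given with TMM scaling unless another is named.

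The saline and the TAA livers, which share no liver, gave slopes of the same sign for nearly all called genes. Within the 4 saline livers alone 660 genes (7.08%) were called, and 637 of them (96.5%) had the same sign in TAA livers, 532 (80.6%) with an unadjusted p under 0.05. Within the 5 TAA livers alone 759 (8.15%) were called, and 737 (97.1%) had the same sign in saline livers, 595 (78.4%) with an unadjusted p under 0.05. Over all 9317 genes, the same sign was seen for 70.9%, and with an unadjusted p under 0.05 in the TAA livers for 19.8%. An opposite slope with an unadjusted p under 0.05 was seen for 2 of the 660 and 3 of the 759. Across genes, which are not independent replicates, the slopes of the saline and TAA livers had a Pearson r of 0.714 and a Spearman rho of 0.594. In both sets the scaling factor and the number of genes detected were lowest in the liver lowest in human NRAS and highest in the liver highest in it.

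**Figure D2:**
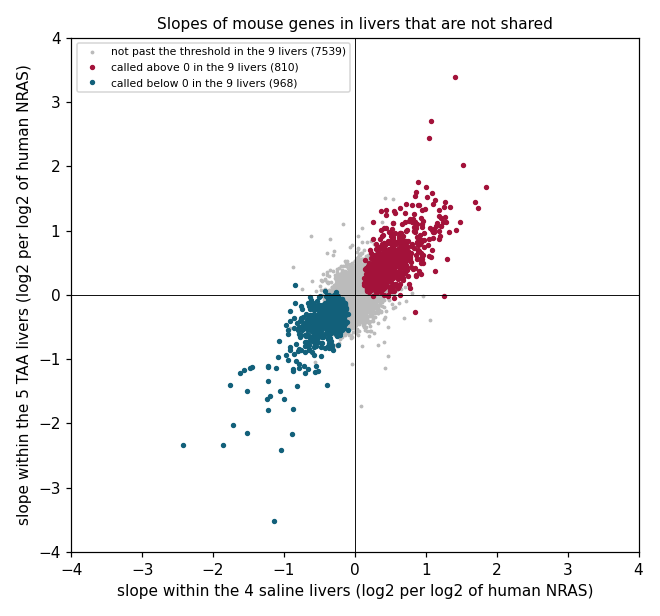
Slope of each of 9317 mouse genes on human NRAS within the 4 saline livers (horizontal axis) and the 5 TAA livers (vertical axis), both in log2 CPM per log2 unit of human NRAS. The 810 genes that rose (red) and 968 that fell (blue) in the 9 livers lie mostly in the upper right and lower left, as their choice from the fit of both sets together favors. Over all 9317 genes 70.9% had the same sign on both axes.

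The mouse relatives of the oncogenes named here had slopes under 0.5. Mouse Nras (GRCm38, chromosome 3, 103058285 to 103067914, plus strand), the host form of the oncogene, was at 42.2, 48.3, 42 and 59.1 CPM in the saline livers and 44.7, 47, 56.4, 62.1 and 57.4 CPM in the TAA livers, each in order of human NRAS. Its slope of 0.14 ± 0.05 did not pass the test (edgeR adjusted p = 0.0891). Hras and Akt2 had slopes of 0.00 (adjusted p = 0.978) and 0.03 (adjusted p = 0.847). Mouse Akt1 (chromosome 12, 112653821 to 112674884, minus strand) rose by 0.42 ± 0.08 (adjusted p = 0.00201), from 15.8 CPM in saline 1 to 63 in saline 3. Its slope was 0.48 within saline and 0.25 within TAA livers, the difference between them did not pass the test (unadjusted p = 0.243, adjusted p = 1), and the call was lost without saline 1. The AKT plasmid has no row of its own, and whether its reads reach the row of mouse Akt1 was not tested. Of the components of the RAS and AKT pathways 4 of 24 tested rose, among them Akt1 and the kinase Mapk3, and 0 fell, beside 8.69% and 10.4% of all genes. Without saline 1, 0 rose and 1 fell, without saline 3 2 rose, and with library size alone 8 rose.

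Genes that are switched on by RAS and MAPK signalling were tested as a list of feedback inhibitors and ETS targets, of which 4 of 10 rose (median slope 0.22) and 15 more lay below the CPM limit. The 4 that rose were Ier3, Ccnd1, Il1rn and Epha2, and the feedback inhibitors Dusp4, Dusp5, Spry1, Spry2 and Spry4 lay below the limit. Ier3 (an early response gene that affects cell survival) rose from 0 CPM in saline 1 to 34.6 in saline 3, with a slope of 1.19 ± 0.16 (adjusted p = 0.000116). Ccnd1, the cyclin that starts the cell cycle, was at 37.8, 85.6, 98.7, 177, 138, 128, 135, 147 and 233 CPM over the 9 livers in order, and rose by 0.55 ± 0.08 (adjusted p = 0.000299). Within the TAA livers alone Ccnd1 was not called (slope 0.35, edgeR adjusted p = 0.0934). SB + TAA livers, without NRas plasmid, had 133 to 265 CPM of it, and SB + saline livers 27.4 to 56.2 CPM. Il1rn, the interleukin-1 receptor antagonist, rose by 0.73 ± 0.12, and the receptor kinase Epha2 by 0.39 ± 0.09, with an adjusted p of 0.12 without saline 3. Dusp6, the phosphatase that feeds back on ERK, had a slope of 0.09 ± 0.08 that did not pass the test (adjusted p = 0.518). It was named after its value was seen. Of the immediate early genes 4 of 9 rose, namely Klf6, Junb, Myc and Egr1, and 0 did so without saline 1.

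The 10 genes with the smallest p among those that rose were Akr1c18, Spink1, Mt1, Cyp21a1, Cdh17, Tspan8, Sox4, Tnfrsf12a, Tes and Slpi. Akr1c18 (ENSMUSG00000021214, chromosome 13, 4132615 to 4150654, minus strand), which inactivates progesterone, was at 10.1, 22.3, 36, 77, 92.4, 112, 131, 166 and 427 CPM, so that every step up in human NRAS, several of them within counting error, came with a step up in this gene. Its slope was 1.23 ± 0.08 (adjusted p = 9.7e-07). The level was 0 to 1.14 CPM in SB + saline livers and 7.49 to 30.9 CPM in SB + TAA livers. Afp (alpha-fetoprotein, the serum marker of fetal liver and liver cancer) was at 3.96, 27.1, 35.1, 72.7, 78.2, 112, 139.5, 167 and 422 CPM. Its slope was 1.30 ± 0.11 (adjusted p = 7.67e-06), with 1.48 within saline and 1.14 within TAA livers. In saline 1 Afp lay near the 0.805 to 3 CPM of SB + saline livers, and SB + TAA livers had 19.7 to 55.1 CPM.

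Spink1, a secreted inhibitor of trypsin, was at 4.39, 8.25, 17.2, 23.7, 66.2, 37.6, 42.9, 77 and 504 CPM and had a slope of 1.64 ± 0.11 (1.36 without saline 3, the liver that stood far above the rest). The surface proteins Tspan8 (slope 1.33 ± 0.11) and Cdh17 (1.16 ± 0.09), both of gut and tumor epithelium, were 3.52 to 232 and 1.76 to 89.7 CPM over the 9 livers. Slpi, a secreted inhibitor of neutrophil elastase, rose by 1.18 ± 0.10, Cyp21a1, a steroid hydroxylase of the adrenal gland, by 1.11 ± 0.09, and Tes, a protein of the actin skeleton, by 0.74 ± 0.06. Sox4, a transcription factor of ductular progenitor cells, rose by 0.86 ± 0.07, and Tnfrsf12a, the receptor of the cytokine TWEAK, by 0.78 ± 0.07. For these genes adjusted p was between 9.93e-07 (Spink1) and 7.65e-06 (Slpi), and each was also called without saline 3 and within the saline and TAA livers alone. These calls are favored by the choice of the genes, which used all 9 livers and an unadjusted p under 0.05 without saline 3.

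**Figure D3:**
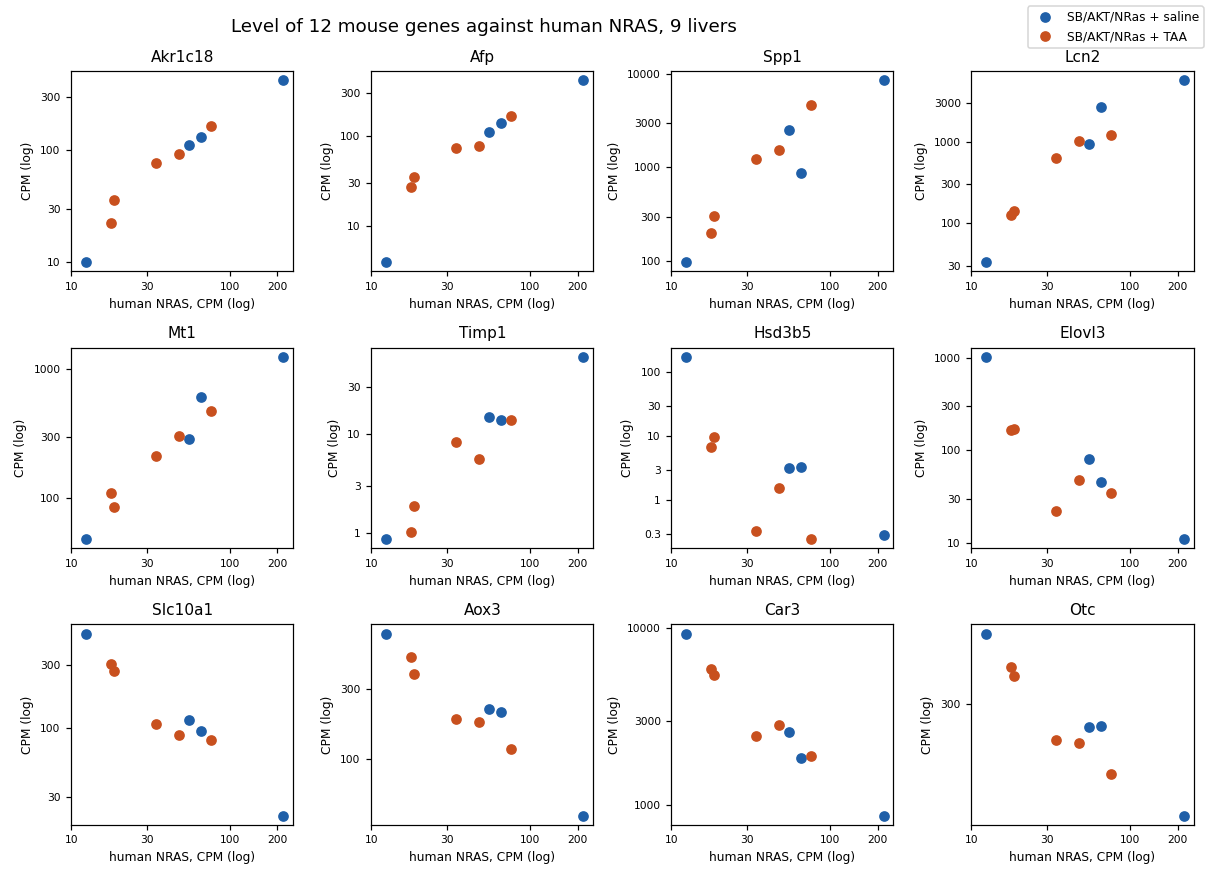
Level in CPM of 12 mouse genes against human NRAS in CPM, both on log axes, in SB/AKT/NRas + saline (blue) and SB/AKT/NRas + TAA (orange) livers. Akr1c18, Afp, Spp1, Lcn2, Mt1 and Timp1 run upward and Hsd3b5, Elovl3, Slc10a1, Aox3, Car3 and Otc downward from saline 1 at the left to saline 3 at the right.

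Mt1, one of these 10 genes, encodes a metallothionein, a small protein that binds zinc and copper. Mt1 (ENSMUSG00000031765, chromosome 8, 94179082 to 94180327, plus strand) was at 48.8, 109.95, 86.5, 213, 305, 288, 608, 472 and 1252 CPM and rose by 1.14 ± 0.09 (adjusted p = 3.88e-06), with slopes of 1.15 within saline and 1.11 within TAA livers. SB + saline livers had 33 to 92.8 CPM, and SB + TAA livers, without NRas plasmid, had 179 to 586 CPM. Its neighbor Mt2, named after its value was seen, rose by 1.20 ± 0.12 (adjusted p = 1.96e-05). Since both rose together, the 250 bases upstream of a RefSeq start site of each are shown (GRCm38.p6, plus strand), at chr8:94178839-94179088 for Mt1 and chr8:94172368-94172617 for Mt2. The stretch of Mt1 ends at 94179088, past the gene start at 94179082 given above, so the start site used lies within the gene as placed there. Capitals mark matches to the core of the metal response element, TGCACNC or TGCGCNC on either strand, which binds the zinc sensor MTF1.
Mt1: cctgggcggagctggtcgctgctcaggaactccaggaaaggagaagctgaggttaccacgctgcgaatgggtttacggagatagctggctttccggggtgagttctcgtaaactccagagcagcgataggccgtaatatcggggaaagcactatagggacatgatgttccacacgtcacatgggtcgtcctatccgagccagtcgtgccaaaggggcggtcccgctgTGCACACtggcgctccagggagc
Mt2: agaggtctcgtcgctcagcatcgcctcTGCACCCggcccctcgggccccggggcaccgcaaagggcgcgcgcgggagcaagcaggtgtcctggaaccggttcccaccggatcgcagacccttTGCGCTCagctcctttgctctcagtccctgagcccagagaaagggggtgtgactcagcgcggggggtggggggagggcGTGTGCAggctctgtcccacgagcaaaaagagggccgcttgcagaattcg
The stretch of Mt1 holds 1 match and that of Mt2 holds 3. Only these bases were searched, so matches past the start site used, or near another start site, are not counted, and the numbers do not rank the promoters. Such a match lies in 21.4% of 32851 promoters of this length and in 29.5% of those of the genes tested.

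Among 25 markers of bile duct and ductular cells, 15 were tested, of which 13 rose and 0 fell, with a median slope of 0.86 against −0.01 over all genes. Their summed level was 507, 864, 939, 2775, 2786, 3780, 1995, 6142 and 10680 CPM, against 418 to 506 CPM in SB + saline livers and 616 to 1587 CPM in SB + TAA livers. Spp1 (osteopontin) made up much of it, at 98.4, 202, 303, 1217, 1527, 2486, 874, 4643 and 8577 CPM, with a slope of 1.68 ± 0.16 (adjusted p = 1.2e-05). Only saline 4 stood out of order, below TAA 1, TAA 2 and saline 2. The surface protein Cd24a rose by 1.25 ± 0.11, the RNA-binding protein Bicc1 by 0.87 ± 0.09, and the duct keratin Krt19 by 1.23 ± 0.33, from a mean of 7.01 CPM. Without saline 3, 11 of 15 were called, and without saline 1, 9.

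Among 19 fetal liver and liver cancer markers, 10 were tested and 8 rose, with a median slope of 0.78. Beside Akr1c18, Afp and Spink1 these were Golm1, a Golgi protein released by liver tumors (slope 0.68 ± 0.10), Cd34, Gpc3, Tubb2b and Ly6d. Cd34 passed the CPM limit at a mean of 5.01 CPM, with 13.9 CPM in saline 3 and 0 to 8.77 CPM in the other livers. Igf2 and Lin28b were listed at 0 in the 9 livers. A listed 0, here and below, may not mean absence, since mt-Co2 and mt-Atp6 of the mitochondrial genome were at 0 too. Gpc3, a surface proteoglycan, had a slope of 1.26 within saline and −0.02 within TAA livers (unadjusted p of the difference 0.00337, adjusted p = 1). The summed level of the list went from 122 CPM in saline 1 to 2606 in saline 3, against 29.9 to 36.2 CPM in SB + saline livers.

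Among 22 genes of senescence and its secreted factors, 9 were tested and 7 rose (median slope 0.78). Cdkn2b, which encodes the cell cycle inhibitor p15, was at 3.08, 4.12, 6.58, 9.67, 12.3, 10.8, 9.43, 18.3 and 41.7 CPM and rose by 0.93 ± 0.09 (adjusted p = 1.02e-05), against 0 to 0.428 CPM in SB + saline livers. Its neighbor Cdkn2a, the other classic senescence gene, lay below the CPM limit. Igfbp3, a secreted carrier of insulin-like growth factor, rose by 0.83 ± 0.08, and Ccl2, the chemokine that draws monocytes, by 1.03 ± 0.11. Of the p53 targets 6 of 13 rose, among them Cdkn1a, the p21 inhibitor (0.43 ± 0.07), and Btg2 (0.63 ± 0.09), and 3 were called without saline 3 and as many without saline 1.

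Among 30 mitosis genes, 16 were tested and 12 rose (median slope 0.49), and the median slope was 0.56 within the saline and 0.49 within the TAA livers. Top2a, which untangles chromosomes, was at 5.71, 16.5, 12.2, 32, 28.4, 29.6, 25.7, 28.6 and 37.5 CPM and had a slope of 0.54 ± 0.11 (adjusted p = 0.00263). Saline 1 was lowest, and the other 8 livers lay between 12.2 and 37.5 CPM with saline and TAA mixed. SB + TAA livers, without NRas plasmid, had 13.4 to 39.5 CPM, and SB + saline livers 1.21 to 4.71 CPM. Without saline 1, 0 of 16 were called, whereas without saline 3, 13 were. Within the TAA livers, which do not include saline 1, Prc1, which bundles the spindle, was called (slope 0.80, adjusted p = 0.0283), as was the spindle motor Cenpe (0.70, adjusted p = 0.0233). Other leading members of the list, Top2a, Birc5 and Ccnb2, were not called there (adjusted p = 0.0679, 0.0811 and 0.124). Of the DNA replication genes 5 of 18 rose, with slopes from 0.25 (Tyms) to 0.55 (Mcm2) among the 4 with the smallest p, with 1 rising without saline 1 and 10 with library size alone.

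Genes of matrix-producing stellate cells and of scar-associated macrophages rose as well. Of 24 tested genes of the extracellular matrix and stellate cells, 18 rose and 1 fell (Ecm1), with a median slope of 0.68. Col1a2, a chain of collagen I, was at 23.3, 44, 46.7, 100.1, 121, 192, 105, 202 and 303 CPM and rose by 0.91 ± 0.10 (adjusted p = 4.02e-05). Timp1, which inhibits matrix-degrading enzymes, rose from 0.879 CPM in saline 1 to 60.8 in saline 3 (slope 1.27 ± 0.12). The cytoskeletal protein Vim rose by 0.69 ± 0.08 and Col4a2 of the basement membrane by 0.65 ± 0.08. The summed level of the list was 484 to 1916 CPM with saline and 594 to 1472 with TAA, and 0 of its members were at 0 in all 9 livers.

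Of the markers of monocyte-derived and scar-associated macrophages 12 of 14 rose (median slope 0.55), with a summed level of 389, 563, 623, 1228, 1110, 916, 719.8, 1419 and 1585 CPM. Ms4a7 rose from 0.879 CPM in saline 1 to 32.6 in saline 3 (slope 1.26 ± 0.16), the lipid carrier Fabp5 by 0.63 ± 0.06, and the tetraspanins Cd63 and Cd9, which other cells also carry, by 0.82 ± 0.09 and 0.50 ± 0.06. Itgam was listed at 0 in the 9 livers. Trem2, Ccr2, Cx3cr1 and Mmp12 were among the other called members. MHC class II genes, with which such cells present antigen, rose in 4 of 6 tested members, H2-Eb1 by 0.54 ± 0.06 and Cd74 by 0.41 ± 0.08. Of the markers of the resident Kupffer cells 1 of 11 fell (C6, which hepatocytes also make) and 0 rose. Over all genes 10.4% fell and 8.69% rose. The summed level of the Kupffer cell markers was lowest in saline 3, at 275 CPM against 545 to 834 CPM in the other 8 livers.

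For several other cell types few markers had enough counts to be tested. Of the markers of sinusoidal endothelium 1 of 17 rose (Cd34, also a marker of capillaries) and 2 fell (Bmp2 and Clec4g). Over all genes 8.69% rose and 10.4% fell. Of 18 neutrophil genes 4 were tested and 2 rose. Lcn2 (lipocalin 2), which injured hepatocytes make too, was at 33.8, 125, 144, 626, 1005, 939, 2641, 1197 and 5686 CPM and had a slope of 1.78 ± 0.20 (adjusted p = 3.89e-05). S100a8, more particular to neutrophils, was at 6.18 to 33.8 CPM and rose by 0.56 ± 0.15 (adjusted p = 0.0169, lost without saline 1), and S100a9 did not pass the test (adjusted p = 0.326). For T and NK cells 1 of 20 markers could be tested, Ccl5, which had a slope of 0.20 ± 0.11 (adjusted p = 0.237). For B and plasma cells 1 of 3 fell, the antibody gene Ighm, and 0 without saline 1. The summed level of skeletal muscle markers was 12.3 to 21.2 CPM and 0 of them could be tested. Their part, and that of the other cell types, in the slopes of other genes was not tested.

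**Figure D4:**
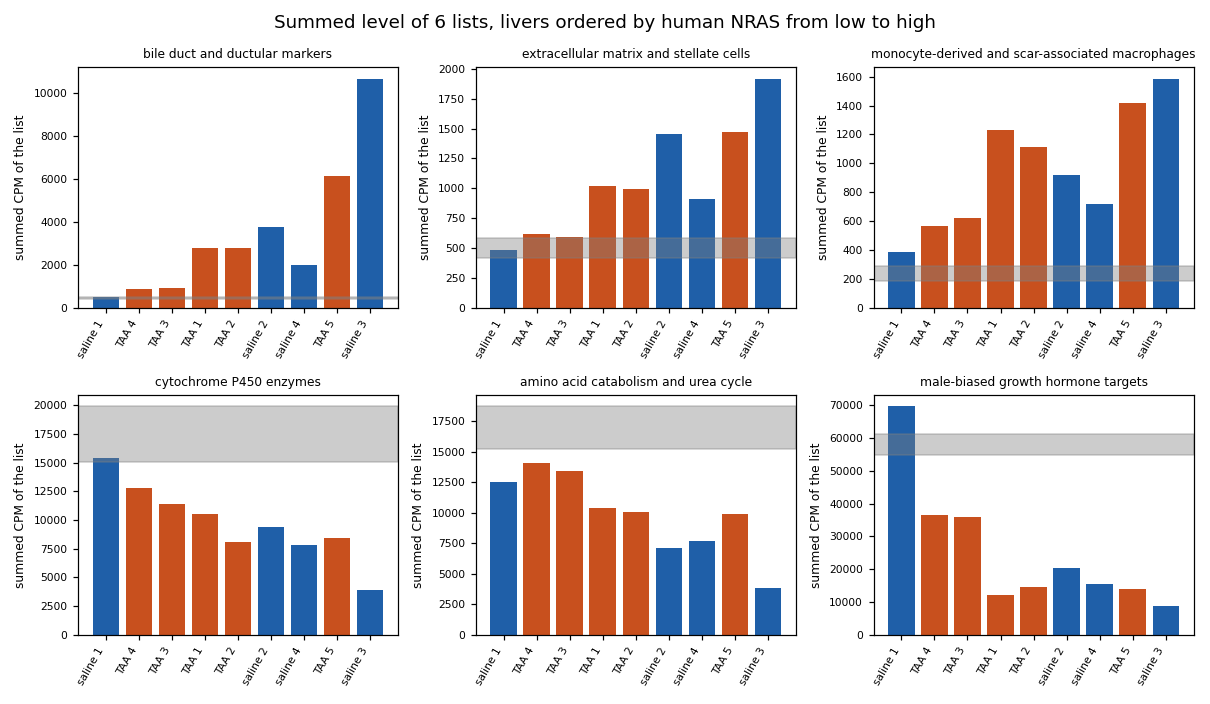
Summed CPM of the members of 6 gene lists in each SB/AKT/NRas liver (blue, saline, and orange, TAA), ordered from low to high human NRAS, with the range of the SB + saline livers as a grey band. Bile duct markers go from 507 to 10680 CPM, and cytochrome P450 enzymes from 15410 to 3939 CPM, between saline 1 and saline 3.

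The lowest p among the genes that fell was that of Hsd3b5, a male-biased target of growth hormone. In male mice, pulses of growth hormone from the pituitary act through STAT5b in hepatocytes to hold these genes at a high level. Of 20 such genes tested, 19 fell (median slope −0.71) and 1 rose. Hsd3b5 (ENSMUSG00000038092, chromosome 3, 98618634 to 98630252, minus strand), which encodes a steroid dehydrogenase, was at 173, 3.13, 3.25 and 0.284 CPM in the saline livers and 6.87, 9.72, 0.334, 1.58 and 0.251 CPM in the TAA livers, each in order of human NRAS. Its slope of −2.43 ± 0.13 was the steepest of the genes named here (adjusted p = 1.52e-07). Saline 1, at the lowest human NRAS, lay just above the 122 to 168 CPM of SB + saline livers, and levels under 1 CPM in saline 3, TAA 1 and TAA 5 rest on few counts. SB + TAA livers, without NRas plasmid, were at 0.811 to 10.6 CPM.

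Elovl3, which lengthens fatty acids, was at 1034, 168, 173, 22, 47.9, 81.7, 45.5, 34.6 and 11.1 CPM and fell with a slope of −1.50 ± 0.13 (adjusted p = 7.84e-06). Mup7, a urinary pheromone carrier, had a slope of −1.91 ± 0.17, and Slco1a1, a transporter of steroids and bile acids, one of −1.55 ± 0.24. Reads of the Mup genes map to many near-identical copies, so their values are uncertain. Igf1, the growth factor that growth hormone raises in the liver, fell by a slope of −0.35 ± 0.06 (adjusted p = 0.000487). Socs2, a feedback inhibitor of growth hormone signalling, was the member that rose (0.25 ± 0.07, adjusted p = 0.0169, not called without saline 1). The summed level was 69660, 36510, 35840, 12180, 14480, 20260, 15600, 14020 and 8720 CPM, and 18 of 20 fell without saline 3 as well as without saline 1. In SB + saline livers the sum was 54730 to 61080 CPM, and in SB + TAA livers 9071 to 33040 CPM.

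The other genes among the 10 with the smallest p of those that fell included Slc10a1, Aox3, Car3, Inmt, Pon1, Ces2a and mt-Ti. Slc10a1 (NTCP), which takes up bile acids from blood, was at 516, 303, 269, 108, 88.6, 115, 95, 80.7 and 21.9 CPM and fell with a slope of −1.04 ± 0.07 (adjusted p = 9.7e-07). Aox3, an aldehyde oxidase, had a slope of −0.96 ± 0.07, Car3, a carbonic anhydrase of hepatocytes, −0.81 ± 0.06, and Inmt, which methylates indoles, −0.71 ± 0.06. Pon1, the esterase of high density lipoprotein, had a slope of −0.68 ± 0.06, and Ces2a, a carboxylesterase, −0.78 ± 0.07. The mitochondrial gene mt-Ti, a transfer RNA, was at 29.8 to 180.2 CPM (slope −0.64 ± 0.05). Its row spans only bases 3706 to 3774, and the libraries were primed at the poly(A) tail. Whether its reads come from neighboring transcripts was not tested, so the value is uncertain. For these genes adjusted p was between 9.7e-07 (Slc10a1) and 7.84e-06 (Ces2a), and the slopes were still below 0 and called with library size alone.

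Of 30 genes of amino acid breakdown and the urea cycle, 24 fell and 0 rose (median slope −0.32). Otc, the ornithine transcarbamylase of the urea cycle, was at 556, 415, 384, 221, 215, 248, 249.8, 164 and 114 CPM and fell with a slope of −0.57 ± 0.05 (adjusted p = 7.67e-06). The slope was −0.72 ± 0.07 for Hal, which breaks down histidine, and −0.55 ± 0.06 for Prodh, which breaks down proline. With library size alone 16 of the 30 fell. Tat, which breaks down tyrosine, had a slope of −0.45 ± 0.05. Genes of gluconeogenesis fell in 4 of 7 tested, among them Fbp1 (−0.34 ± 0.06) and G6pc (−0.60 ± 0.12), which release glucose.

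Genes of both zones of the liver lobule were among those that fell, with more of the periportal ones. Of the periportal genes 10 of 15 fell, such as Cyp2f2 (−0.69 ± 0.08) and Sds (−0.64 ± 0.10). Of the perivenous genes 6 of 16 fell and 1 rose, and 3 and 3 did so without saline 3. With library size alone 3 fell and 1 rose. The median slope of the perivenous genes was −0.32 within saline and −0.04 within TAA livers. For the periportal genes it was −0.465 and −0.27. Cyp1a2, an oxidase of caffeine and other drugs, was at 285, 211, 253, 154, 134, 140.2, 126, 117 and 25.6 CPM (slope −0.69 ± 0.09). Of the cytochrome P450 enzymes 22 of 33 fell and 2 rose (Cyp17a1 and Cyp39a1). Cyp7b1, of bile acid and steroid metabolism, had a slope of −0.95 ± 0.10 and Cyp4v3, a fatty acid hydroxylase, −0.37 ± 0.05. The Cyp2c genes, such as Cyp2c29 (−0.67 ± 0.08), are close copies of each other and uncertain. Of the genes of bile acid transport and synthesis 10 of 22 fell, among them Slc27a5 (−0.51 ± 0.05) and Slco1b2 (−0.61 ± 0.07), and 1 rose (Slc51b, an exporter of bile acids to blood).

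Transcription factors that define hepatocytes fell in 4 of 20 tested, and with library size alone 1 fell and 1 rose. Foxa3 was close to the threshold (slope −0.29 ± 0.10, adjusted p = 0.0497) and lost its call in most of the alternatives. Tbx3 had a slope of −0.61 ± 0.10, Nr1i3 (the drug sensor CAR) −0.39 ± 0.10, with an adjusted p of 0.155 without saline 3, and Hnf4a −0.20 ± 0.07 (adjusted p = 0.0791, not called). Of the plasma proteins of hepatocytes 13 of 31 fell, among them Apoa2 (−0.39 ± 0.06) and Serpinc1 (−0.31 ± 0.05), and 3 rose (Hpx, Trf and Ahsg). Without saline 3, 14 fell and 0 rose. Without saline 1, 4 fell and 1 rose. With library size alone 3 fell and 5 rose, so the balance of this list turns with the scaling. Of the acute phase proteins 8 of 20 rose and 2 fell. Cp (ceruloplasmin, a copper carrier of plasma) was at 1157, 1488, 1575, 2059.6, 2297, 2238, 2743, 2492 and 4837 CPM and rose by 0.46 ± 0.05, and Orm2 by 0.74 ± 0.13.

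Genes of the respiratory chain fell by shallow slopes in 12 of 35 tested (median slope −0.15), for example Ndufa1 (−0.24 ± 0.05). With library size alone, or without saline 1, 0 did, and without saline 3 18 did. Cytosolic ribosomal proteins gave 1 of 28 that rose, and 19 with library size alone. The counts of both lists thus change with the scaling factor, which itself moved with human NRAS.

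Glycolysis genes rose in 4 of 14 tested and fell in 0, and 10 rose with library size alone. Pfkp, the phosphofructokinase of platelets and tumors, was at 0.879, 1.03, 2.51, 4, 5.36, 8.69, 6.5, 8.52 and 35.5 CPM and rose by 1.17 ± 0.11 (adjusted p = 1.2e-05). Its mean of 8.11 CPM, and so its place above the CPM limit, leans on saline 3, since the other livers had 0.879 to 8.69 CPM. Pkm, the pyruvate kinase of dividing cells, rose by 0.59 ± 0.07. Of the lipogenesis genes 4 of 17 rose and 3 fell, against 7 and 1 with library size alone, 3 and 1 without saline 3, and 2 and 2 without saline 1. Scd2, a desaturase of fetal liver, rose by 0.94 ± 0.18 and Mlxipl (ChREBP, the glucose-driven regulator of lipogenesis) had a slope of −0.55 ± 0.07. Cholesterol synthesis genes rose in 6 of 18 tested, Sqle by 0.46 ± 0.06, but without saline 3, 1 rose and 2 fell, without saline 1, 1 rose, and with library size alone 12 rose. Of the lipid droplet proteins 3 of 11 rose, Plin2 by 0.26 ± 0.05 and Hilpda by 0.58 ± 0.10, and 1 did without saline 1. Fitm1, which helps lipid droplets form, fell with a slope of −0.34 ± 0.09 (adjusted p = 0.0157, 0.189 without saline 3). Of the fatty acid oxidation genes 5 of 20 fell, and 0 with library size alone. Fgf21, a fasting hormone of the liver, rose by 0.41 ± 0.09. Without saline 1, 2 of the fatty acid oxidation genes fell. Of the glutathione and NRF2 genes 3 of 22 rose, among them G6pdx and Pgd of the pentose phosphate pathway (0.54 ± 0.09 and 0.38 ± 0.08), and 3 fell. Without saline 3 these counts were 6 and 1, without saline 1 1 and 1, and with library size alone 7 and 1. Of the interferon-stimulated genes 0 rose and 1 of 13 fell, and with library size alone 6 rose and 0 fell. For all lists of this paragraph, the shares over all genes were 8.69% that rose and 10.4% that fell. With library size alone 2355 of the 9317 genes rose and 368 fell.

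**Figure D5:**
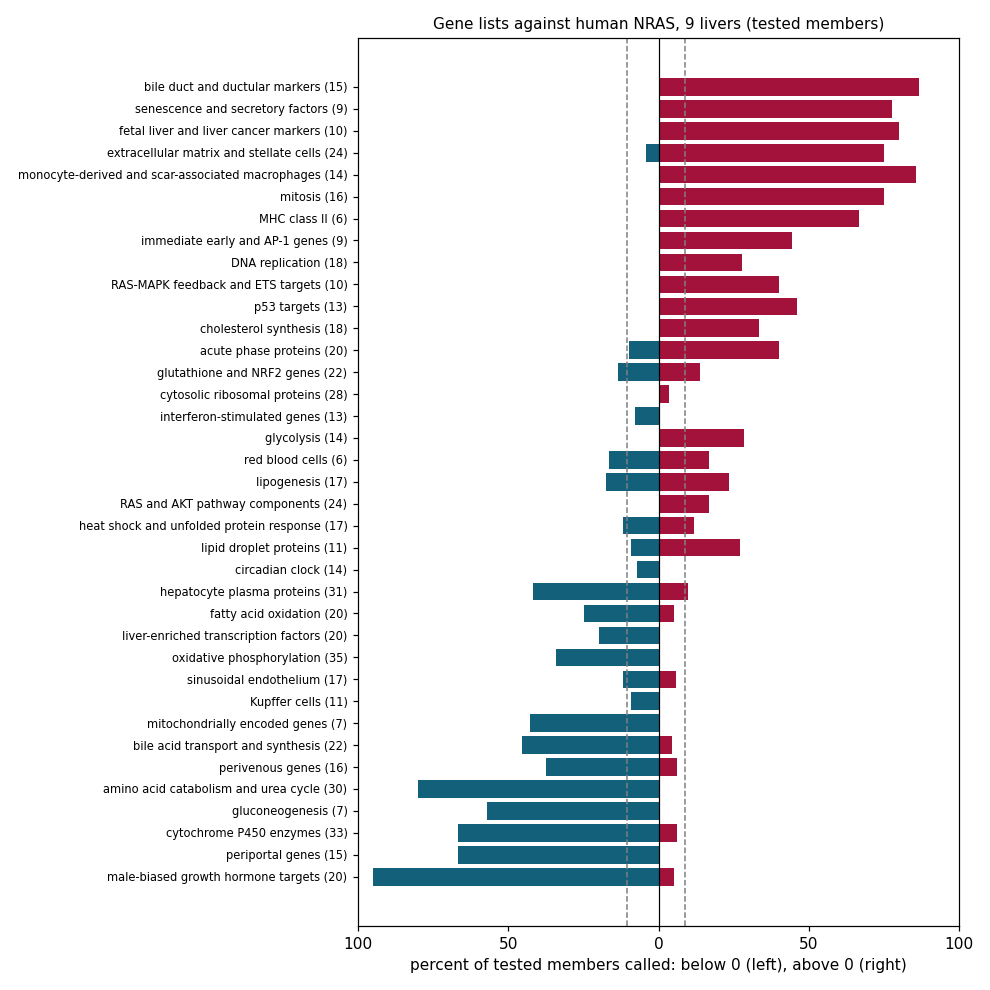
Percent of the tested members of 37 gene lists that fell (left) or rose (right) with human NRAS in the 9 livers, with the number tested in brackets and lists ordered by their median slope. Dashed lines mark the 8.69% that rose and 10.4% that fell over all genes. Bile duct markers (13 of 15) lead the rise and male-biased growth hormone targets (19 of 20) the fall.

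Whether the slope on human NRAS depended on injury was tested as an interaction. With edgeR 0 of 9317 genes (0%) passed, 325 had an unadjusted p under 0.05, and limma-voom also called 0. Leaving out a liver gave 0 to 13, with 13 without saline 1, 9 without saline 3 and 3 without saline 4. Igfbp1, a fasting-induced binding protein of insulin-like growth factors, had slopes of 0.57 within saline and 1.27 within TAA livers (adjusted p of the difference 0.255). It was at 32.5, 80.7, 79.7 and 169 CPM in saline and 39.5, 51.1, 99.4, 143 and 286 CPM in TAA livers. Slco1a1 had −1.15 and −3.52 (adjusted p = 0.27), and Clpx, a mitochondrial chaperone, −0.39 and 0.35 (adjusted p = 0.255). With 4 and 5 livers, a p that misses the threshold does not show that the slopes are alike.

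At equal human NRAS, TAA livers differed from saline livers in more genes than without that covariate, a comparison added after seeing the data. The TAA term called 144 genes higher (1.55%) and 83 lower (0.891%), with 1431 at an unadjusted p under 0.05, against 16 higher and 5 lower when human NRAS was left out of the fit. All 21 of those were called again. Nt5e, the ectonucleotidase CD73, was at 1.76, 8.69, 5.2 and 16.2 CPM in saline and 34, 25.4, 49.7, 47.3 and 48.6 CPM in TAA livers, without overlap, and was higher by 2.94 ± 0.25 log2 units (adjusted p = 9.05e-05). Slc1a2, which carries glutamate into pericentral hepatocytes, was at 90.1, 87.3, 74.5 and 10.5 CPM in saline and 0.687, 0.94, 1, 0.946 and 3.01 CPM in TAA livers, a difference of −5.70 ± 0.51. Glul, the glutamine synthetase of the same cells, differed by −2.34 ± 0.23, and the monoamine oxidase Maoa by 2.10 ± 0.22. Hsd3b5 differed by −3.01 ± 0.32 beside its slope on human NRAS. Without saline 1 the term called 64 genes higher and 45 lower, and without TAA 2, 80 and 53.

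Some genes did not follow a straight line. A squared term, added after seeing the data, called 42 genes (0.451%), 12 with an upward and 30 with a downward bend, and 1360 had an unadjusted p under 0.05. Of the 42, 9 were also called for the straight line. Ang, a secreted ribonuclease, was at 261, 322, 314, 343, 321, 241, 250.4, 223 and 55.1 CPM, level over 8 livers and low in saline 3 (adjusted p = 0.0026). Rnase4, which overlaps Ang, so that reads of the shared stretch are uncertain, followed the same course (563, 644, 652, 658, 585, 533, 568, 501 and 137 CPM). Marco, a scavenger receptor of macrophages, was highest in saline 2 at 55.6 CPM and lowest in saline 3 at 7.38 CPM (adjusted p = 0.00299). Fabp4, a lipid carrier of adipocytes and endothelium, rose from 21.5 CPM in saline 1 to 186 CPM in TAA 5 and stood at 135 CPM in saline 3 (adjusted p = 0.0026). For Ang and Rnase4 a bend at high human NRAS and a property of saline 3 alone cannot be told apart, since no other liver lies at such a level.

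The genes whose level was most like that of human NRAS, by Pearson r of log2 CPM centred within injury over the 9 livers, were Tpm3-rs7 (r = 0.994), Stom (0.994) and Tes (0.994). The values are a description, since the points share libraries and scaling factors with human NRAS. Tpm3-rs7 is a copy of a tropomyosin gene whose reads may belong to Tpm3, and was at 11.4 to 30.4 CPM with a slope of 0.33 ± 0.06. Stom, a protein of the cell membrane, was at 17.6, 27.5, 29.8, 35, 39.1, 30.6, 31.5, 43.1 and 44.6 CPM with a slope of 0.31 ± 0.05. Their slopes were shallow, unlike those of Spp1 or Lcn2.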

How the data were processed

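RNA from snap-frozen bulk liver was primed at the poly(A) tail with a molecular identifier and sequenced on a NextSeq. The authors demultiplexed with Sabre, aligned with STAR to GRCm38 with human NRAS and MET added, deduplicated by identifier and counted per gene with featureCounts 1.6.4 (mapping quality 10, forward strand). The files deposited by the authors hold counts per gene that were not normalized. A mapping quality limit removes reads that fit close gene copies equally well, so such genes are uncertain. Columns of per-sample values left unused: 0.

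Here the 24 libraries were scaled by TMM after the study's filter (0.5 CPM in at least 2 libraries), and genes with a mean of at least 5 CPM over the 9 livers were fitted in edgeR 4.0.16 (R 4.3.3) by the quasi-likelihood test across all genes, with injury and log2 CPM of human NRAS as terms and Benjamini-Hochberg adjustment. Slopes are given ± SE. The study used limma-voom, tried as an alternative (limma 3.58.1), as was DESeq2 1.42.0. Pearson r of single genes uses log2(CPM + 0.5). No pair of libraries was identical. The fit was tested on simulated data. Each library is 1 mouse, so p-values measure the spread between mice. Poisson intervals cover counting error only. Figures were drawn with matplotlib 3.10.9.

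The livers, the limit and the 43 gene lists were chosen with earlier results of these data known. Genes named are human NRAS and its mouse relatives, the 10 with the smallest p in each direction that also passed an unadjusted p under 0.05 with the same sign without saline 3 (0 predicted genes or pseudogenes were passed over in each direction), up to 4 leading members of each list, up to 4 genes by interaction p in each direction, and the 3 most like human NRAS. Genes called for the TAA term at equal human NRAS or for the squared term, and other list members given as values, were added after their values were seen. Alternatives were other scalings, filters and tools, the rank of human NRAS, no injury term, all 24 livers, a replicate block and the omission of livers. Expression from the AKT plasmid was not analysed here, and results of some genes are not reported here.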

Additional observations from a re-analysis of the deposited data

Results flagged for a closer look

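In 6 of 66 groups of livers tested, the gap between the most extreme liver and its nearest neighbor took up more of the whole range than Dixon's 95% limit. Chance alone flags about 1 in 20 such groups. In SB/AKT/NRas + saline, replicate 3 stood apart for Spink1, at 504 CPM (share of the range 0.923). Replicate 1 of the same group stood apart for Hsd3b5, at 173 CPM (0.983), for Mup7, at 455 CPM (0.922), and for the TMM factor, at 0.846 (0.900). In SB/AKT/NRas + TAA, replicate 4 stood apart for the percent of records that were assigned to genes, at 19.4% (0.751), and replicate 2 for Hras, at 61.2 CPM (0.726). Spink1, Hsd3b5 and Mup7 kept a called slope of the same sign both without saline replicate 3 and without saline replicate 1. The fit without saline replicate 3 was part of how these genes were chosen.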

How the results depend on the processing

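The main counts, 810 genes above 0 and 968 below 0, were kept within 1.5-fold by RLE size factors, limma-voom, DESeq2, robust estimation, the filters on low counts, the rank of human NRAS, the fit without injury and the fit of all 24 livers. With library size alone they were 2355 and 368. Leaving out 1 liver gave 386 to 963 above and 511 to 1141 below, the lowest without saline 1. Without both the highest and the lowest liver they were 246 and 277, within the saline livers 326 and 334 and within the TAA livers 347 and 412, with fewer livers in each fit. The interaction gave 0 to 13 calls when 1 liver was left out. The TAA term at equal human NRAS gave 64 to 181 genes above and 45 to 104 below, and 16 and 5 with no human NRAS term. The saline mean of human NRAS was 87.9 CPM, and 44.5 without replicate 3.

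Replicate numbers do not pair the livers, as same-numbered livers had correlations of −0.394, 0.0802, −0.470 and −0.0526. With the replicate block the counts were 578 and 604, the interaction called 3, and 19 of the 141 called genes among those named lost their call.

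Of 3243 values of the 141 called genes under the alternatives, 2874 kept sign and call, 367 kept the sign only, and 2 changed sign, both for the slope of Lss: −0.0197 without the highest and lowest livers and −0.0467 within the TAA livers. The cause was not tested. Human NRAS of the lowest liver rests on 28 counts, which limits the precision of its place on the axis.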

Other observations

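Of the heat shock and unfolded protein response genes 2 of 17 rose and 2 fell, beside 8.69% and 10.4% of all genes. Without saline 3 these counts were 2 and 6, without saline 1 they were 1 and 0, and with library size alone 5 and 1. Asns, the asparagine synthetase, rose by 0.61 ± 0.09 (edgeR adjusted p = 0.000191), and its levels, in order of human NRAS, were 12.7, 24, 39.4 and 61 CPM in saline and 11.3, 5.64, 12, 16.4 and 25.8 CPM in TAA livers. Herpud1, which helps to clear misfolded proteins from the endoplasmic reticulum, had a slope of −0.40 ± 0.09. Of the red cell genes 1 of 6 rose and 1 fell. Car2, a carbonic anhydrase, rose by 0.32 ± 0.10 (adjusted p = 0.0312, 0.141 without saline 3). Alas2, which starts heme synthesis in red cell precursors, fell with a slope of −0.54 ± 0.06 (adjusted p = 5.88e-05), while the globin genes Hba-a2 and Hbb-bs had slopes of 0.05 ± 0.10 and 0.04 ± 0.11 that did not pass the test in the 9 livers. Within the TAA livers alone both globin genes were called, with slopes of 0.48 (adjusted p = 0.0361) and 0.53 (adjusted p = 0.0324), and within the saline livers their slopes were −0.10 and −0.11. Of the mitochondrially encoded genes 3 of 7 fell, and 0 with library size alone or without saline 3. Of pancreas and gut epithelium 2 markers were tested and 0 rose. Of adipocyte and mesothelium markers 1 of 10 could be tested, Fabp4, which rose, while Lep and Adipoq were listed at 0 in the 9 livers, and Fabp4 was not called without saline 1.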
